A study of Lytechinus variegatus with 8 samples.

Results

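Oxidative phosphorylation genes of the sea urchin Lytechinus variegatus were compared between primary and secondary spines, with genes of the nucleus set beside genes of the mitochondrial genome. Nuclear members were the genes whose deposited product name matched a subunit name of complexes I to V, such as NADH dehydrogenase, succinate dehydrogenase, cytochrome b-c1, cytochrome c oxidase or ATP synthase subunit, with assembly factors left out. Mitochondrial members were all protein-coding genes on the sequence that carries COX1. The choice gave 84 of 26814 genes, of which 71 were nuclear and 13 mitochondrial. Complex I had 35 nuclear and 7 mitochondrial genes, complex II had 5 nuclear genes, complex III had 6 and 1, complex IV had 10 and 3, and complex V had 15 and 2. Of the nuclear matches 4 are named for proteins that are no structural subunit of a complex, and 67 are named as subunits.

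The RNA came from 4 wild-caught, wild-type animals of the white-and-green color morph. Each animal gave 1 library of 50 pooled primary spines and 1 library of 100 pooled secondary spines, so that each group had 4 libraries and a spine type was always compared at its own number of spines. Primary and secondary spines are the large and small movable spines of a sea urchin, and each holds a calcite skeleton covered by epidermis with nerves and, at its base, muscle and ligament. Messenger RNA had been selected with poly-T beads, and 9252184 to 10902546 reads were counted per library. Replicate numbers are used as animal numbers, because the spines of both kinds came from the same individuals and libraries of 1 number deviated together.

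Oxidative phosphorylation takes place in the inner mitochondrial membrane. Complexes I and II pass electrons from NADH and succinate to ubiquinone, complex III passes them on to cytochrome c, complex IV reduces oxygen, and complex V uses the proton gradient that complexes I, III and IV build to make ATP. Complex II is encoded wholly in the nucleus, whereas the other complexes combine nuclear subunits with a few subunits read from the mitochondrial genome, which has its own RNA polymerase and ribosomes.

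The nuclear and the mitochondrial members had similar summed levels of captured RNA, the latter mainly through COX1, and each sum was lower in secondary spines on average. The summed CPM (read counts scaled to library size with TMM factors, edgeR's correction for library composition) of the 71 nuclear genes was 7340, 6223, 5401 and 5384 in primary spines of animals 1 to 4, and 4591, 4039, 5106 and 4921 in their secondary spines. The 13 mitochondrial genes summed to 8256, 6203, 5784 and 6271 CPM in primary spines and to 5367, 4006, 5832 and 5299.7 CPM in secondary spines. On this scale all 4 primary libraries lay above all 4 secondary libraries for the nuclear sum, while the mitochondrial sums overlapped, since secondary library 3 exceeded primary library 3. Means were 6087 ± 922 against 4665 ± 468 CPM for nuclear genes and 6628 ± 1106 against 5126 ± 783 CPM for mitochondrial genes (SD, n = 4 libraries per group), which are log2 ratios of -0.38 and -0.37. In bulk RNA such as this, fewer cells of a type and less RNA per cell cannot be told apart.

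The ratio of the sums, which mainly sets COX1 against the nuclear genes, did not differ between spine types by more than the spread between animals. Mitochondrial over nuclear summed CPM was 1.12, 0.997, 1.07 and 1.16 in primary spines and 1.17, 0.992, 1.14 and 1.08 in secondary spines. The means were 1.09 ± 0.0726 and 1.09 ± 0.0788 (SD, n = 4), and animal 2 had the lowest ratio in both kinds of spine. As shares of all counted reads, nuclear members took 0.524% to 0.658% in primary and 0.429% to 0.529% in secondary libraries, and mitochondrial members took 0.567% to 0.74% and 0.426% to 0.604%. Without TMM factors the nuclear shares thus overlapped as well, with secondary library 3 at 0.529% above primary library 4 at 0.524%.

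The difference between spine types was uneven among the animals, and the unevenness was alike for both genomes. Within animals 1 to 4 the log2 ratio of secondary to primary summed CPM was -0.68, -0.62, -0.08 and -0.13 for nuclear genes and -0.62, -0.63, 0.01 and -0.24 for mitochondrial genes. Animals 1 and 2 had the larger differences, animal 3 was close to 0, and animal 4 lay between, at -0.13 and -0.24. With library size alone in place of TMM the nuclear differences were -0.43, -0.42, 0.00 and -0.01 and the mitochondrial ones -0.37, -0.42, 0.09 and -0.12, and the means over animals moved from -0.38 to -0.21 and from -0.37 to -0.21. The sum without COX1 gave -0.39, -0.49, 0.04 and -0.22, and the 12S and 16S ribosomal RNA genes of the mitochondrial genome, which are no members, gave -0.95, -0.59, -0.03 and 0.10. Complex II varied least among animals, with summed differences of -0.31, -0.15, -0.13 and -0.12 (SD 0.09, against 0.29 to 0.38 for the other nuclear complexes). The difference among animals was not tested.

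**Figure D1:**
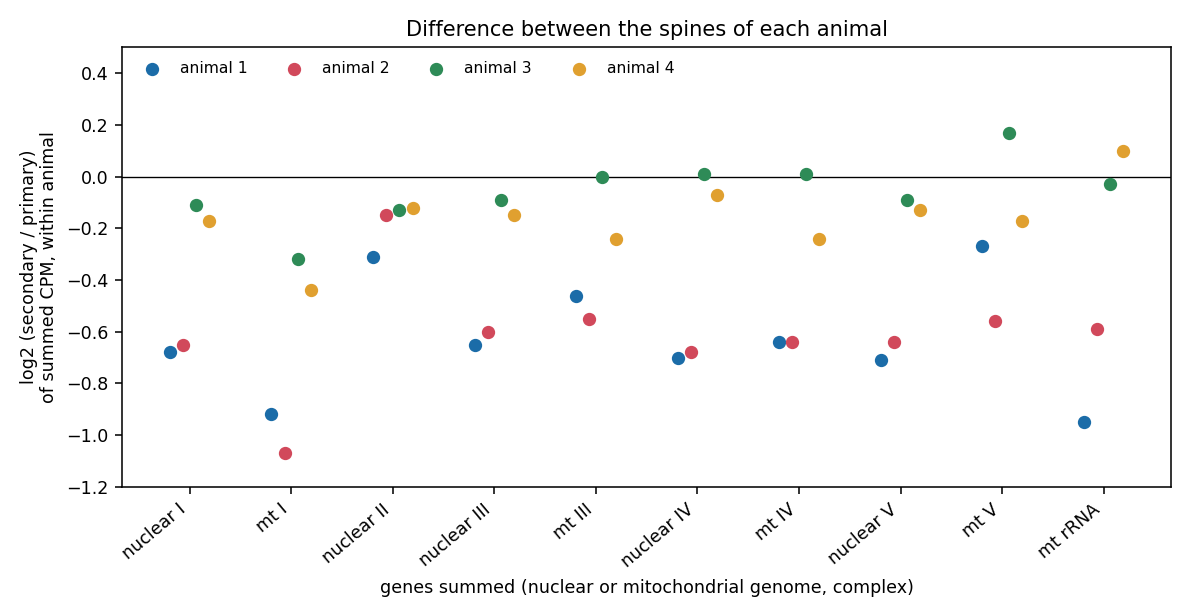
Log2 ratio of secondary to primary summed CPM within each animal (y axis) for the genes of each complex by genome, and for the mitochondrial rRNA genes (x axis); each point is 1 animal. Animals 1 and 2 lie at or below -0.59 for nuclear complexes I, III, IV and V, where animals 3 and 4 lie between -0.17 and 0.01. For the sum of nuclear complex II the 4 animals lie between -0.31 and -0.12, and its single genes are not shown.

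Among individual nuclear genes, nearly every estimate was below 0 but few passed the test of the reported fit. That fit leaves out the pairing of libraries by animal, which a fit with the animal as a block keeps. Of the 71 nuclear genes 69 had enough reads to be tested, and 66 of these (95.7%) had a log2 fold change (secondary minus primary) below 0, against 52.6% of all 16788 genes tested. Their median was -0.37 with quartiles of -0.45 and -0.27, whereas the median of all genes was -0.03. The 3 genes above 0 were an SDHA-like gene (LOC121419291, 0.02 ± 0.28 SE) and a pair of genes named as translational activators of cytochrome c oxidase I (0.67 ± 0.33 and 0.22 ± 0.60), none of which passed the test. The latter pair belongs to the 4 matches that are no subunit.

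By edgeR's quasi-likelihood test at a Benjamini-Hochberg adjusted p under 0.05 over all genes, 1 nuclear gene (1.45%) was called lower in secondary spines and 0 higher, against backgrounds of 1.93% lower and 5.88% higher. At an unadjusted edgeR p under 0.05, 17 nuclear genes were lower and 0 higher, which is 24.6% lower against 8.19% of all genes, of which 11.1% were higher. DESeq2 called 8 lower (11.6%, background 4.57%) and 0 higher (background 8.34%). With the animal as a block in the edgeR fit, 17 were called lower (24.6%, background 11.7%) and 0 higher (background 12.4%). The blocked count changed with the animals kept: it was 1 without animal 1 and 0 without animal 2, and 12 and 19 without animals 3 and 4. The share of all genes called in those 4 fits is not reported here. These counts therefore cannot be set against all genes. Without regard to a test, 10 nuclear genes (14.5%, background 5.69%) had every secondary library below every primary library, and 31 (44.9%, background 24.1%) were lower in secondary spines of all 4 animals.

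Of the 7 mitochondrial genes that could be tested, all 7 had a log2 fold change below 0, with a median of -0.35, close to the nuclear one. None was called by edgeR in either direction (backgrounds 1.93% lower and 5.88% higher). At an unadjusted edgeR p under 0.05 there were 0 as well (backgrounds 8.19% lower and 11.1% higher). DESeq2 called 0 (backgrounds 4.57% lower and 8.34% higher). With the block, edgeR called ND2 alone lower (14.3% of the 7 genes, background 11.7%). Its blocked log2 fold change was -0.72 ± 0.21 SE (edgeR adjusted p = 0.0396), and this call was absent in the fits without animal 1, 2 or 3. The groups overlapped for all 7 genes, where 5.69% of all genes tested had every secondary library below every primary library. With 7 genes, counts of 0 or 1 cannot be told apart from these shares.

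**Figure D2:**
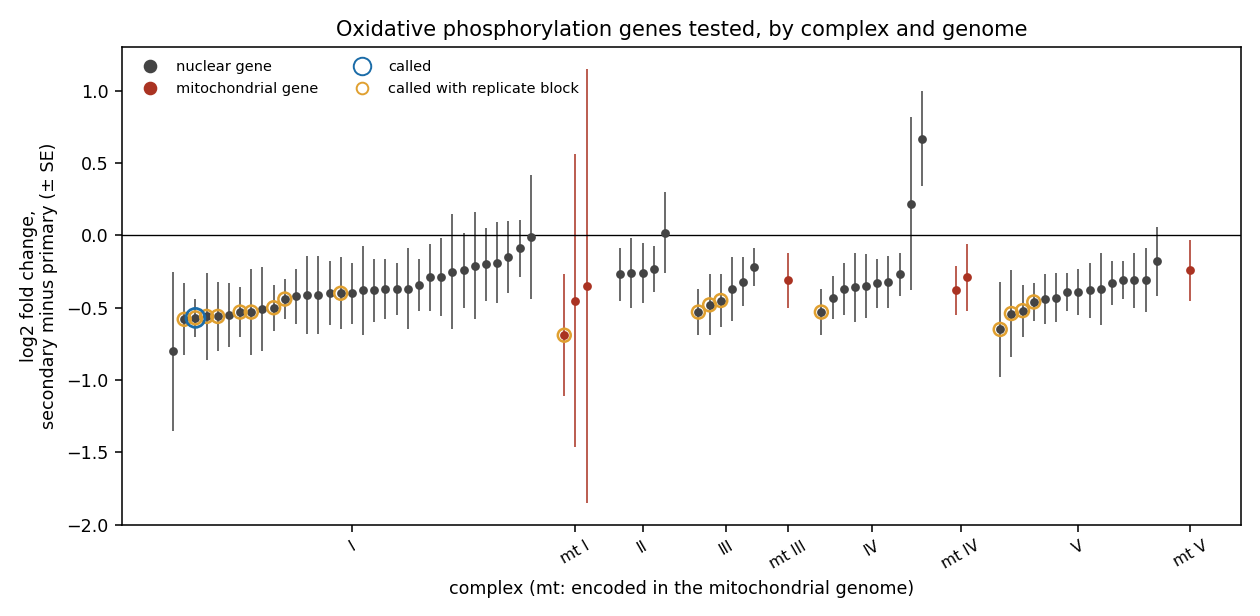
Log2 fold change, secondary minus primary, with its SE (y axis) for the 69 nuclear and 7 mitochondrial genes tested, ordered by value within each complex and genome (x axis). Rings mark genes called at an adjusted p under 0.05; 66 nuclear and 7 mitochondrial genes lie below 0, 1 nuclear gene was called without the block, and 17 nuclear genes and ND2 with it.

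The mitochondrial genome was read very unevenly. COX1, the catalytic core of complex IV (positions 5827 to 7380 of the mitochondrial sequence in the Lvar_3.0 files, plus strand), received 425453 of the 466318 reads on mitochondrial protein-coding genes, and between 87.6% and 92.7% of them in each library. Its mean level per length was 3405 FPKM (fragments scaled by gene length and depth, as deposited), 19.9 times that of COX2. The gene was counted at 7654, 5502, 5304 and 5796 CPM in primary spines and at 4908, 3509, 5339 and 4892 CPM in secondary spines. Secondary spines were lower in animals 1, 2 and 4 and slightly higher in animal 3, and the log2 fold change of -0.38 ± 0.17 SE did not pass edgeR's test (adjusted p = 0.281). 

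COX2 and ATP6 followed far below. COX2, the subunit that receives electrons from cytochrome c (positions 7749 to 8438), had 133, 181, 101 and 109 CPM in primary and 95.6, 146, 95.6 and 93.0 CPM in secondary spines, and was lower in the secondary spines of all 4 animals. Its log2 fold change was -0.29 ± 0.23 SE (edgeR adjusted p = 0.609; 0.0688 with the block). ATP6, the proton channel subunit of complex V (positions 8668 to 9357), had 256, 365, 194 and 209 CPM against 212, 248, 219 and 186 CPM, a log2 fold change of -0.24 ± 0.21 SE (edgeR adjusted p = 0.64). Without primary library 2 the values were -0.02 for ATP6 and -0.09 for COX2, and with correction for gene length they were -0.05 and -0.09. Animal 2 was the highest animal for both genes in primary and in secondary spines. CYTB, the only mitochondrially encoded subunit of complex III (positions 14551 to 15693), had 195, 144, 151 and 125 CPM against 142, 98.3, 151 and 106 CPM (log2 fold change -0.31 ± 0.19 SE, edgeR adjusted p = 0.472). Per length, mean levels were 338 FPKM for ATP6, 171 FPKM for COX2 and 119.9 FPKM for CYTB.

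The ND genes encode core subunits of the membrane arm of complex I, and those tested had fewer reads than the other mitochondrial genes tested. ND2 had 140, 60, 82 and 93 reads in primary and 81, 24, 67 and 86 reads in secondary libraries (mean 7.47 FPKM; unblocked log2 fold change -0.69 ± 0.42 SE, edgeR adjusted p = 0.456). ND5 had 5, 48, 86 and 100 reads against 2, 27, 81 and 83 reads, so that animal 1 was nearly without reads in both kinds of spine (log2 fold change -0.45 ± 1.01 SE, edgeR adjusted p = 0.907). ND3 had 13, 0, 146 and 103 reads against 10, 0, 126 and 94 reads (log2 fold change -0.35 ± 1.50 SE, edgeR adjusted p = 0.961). Animal 2 had 0 ND3 reads in both libraries while animals 3 and 4 had 94 or more in each, so the spread among animals was much wider than any difference between spines. The ND3 estimate changed sign, to 0.40, without primary library 3.

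The other 6 mitochondrial protein genes were too low to test. ND6, the only protein-coding gene read from the minus strand, had 8, 0, 11 and 2 reads in primary and 1, 0, 3 and 4 reads in secondary libraries, and was again at 0 in both libraries of animal 2. COX3, ND4, ND1, ND4L and ATP8 had 10 or fewer reads over all 8 libraries together, and ATP8 had 0 in each. A count of 0 allows up to 3 reads, or 0.275 to 0.324 CPM in these libraries, and covers counting error only. The 22 tRNA genes of the mitochondrial genome together had 842 reads.

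**Figure D3:**
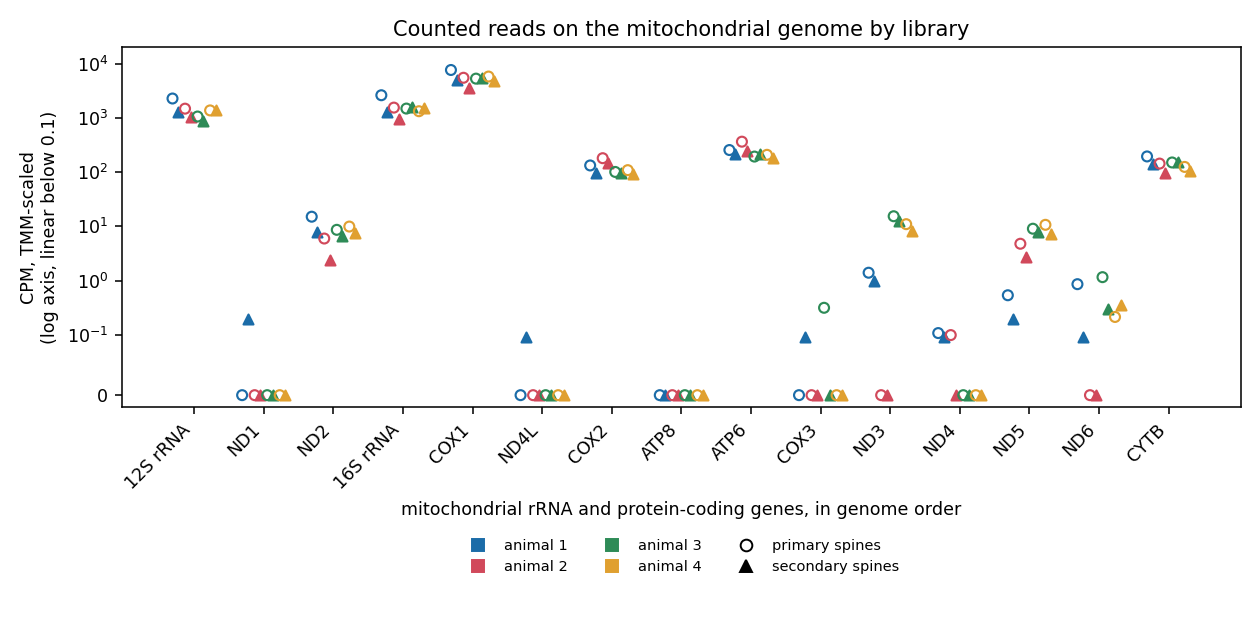
CPM (y axis, log scale above 0.1) of the rRNA and protein-coding genes of the mitochondrial genome in genome order (x axis), with open circles for primary and filled triangles for secondary libraries and 1 color per animal. COX1 lies between 3509 and 7654 CPM, COX2, ATP6 and CYTB between 93.0 and 365 CPM, and 5 protein-coding genes lie at or near 0; ND3, ND5 and ND6 differ more between animals than between spines.

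Several of these genes adjoin or overlap others. COX1 starts at the base after the 16S ribosomal RNA gene, which starts at the base after ND2, ATP6 shares 7 bases with ATP8, and COX2 shares 1 base with ND4L. Whether the reads were counted by strand, and how reads that fit several genes were handled, is not stated in the sources at hand, and the values of these genes are uncertain to that extent. The poly-T selection captures a mitochondrial transcript only where it carries a poly-A stretch, so levels of mitochondrial genes here are levels of the captured RNA.

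Complex I, the entry point for NADH, held the 1 nuclear gene called in the unblocked fit. NDUFB7-like (LOC121423869, chromosome 11, 35758274 to 35773731, Lvar_3.0), an accessory subunit of the membrane arm in mammals, had 99.1, 88.4, 75.5 and 79.5 CPM in primary spines and 51.5, 56.6, 60.0 and 61.8 CPM in secondary spines. Every secondary library was below every primary library, and means were 85.6 ± 10.5 against 57.5 ± 4.55 CPM (SD, n = 4). Its log2 fold change was -0.57 ± 0.13 SE, with an adjusted p of 0.0275 by edgeR, 0.0135 by edgeR with the block and 0.000544 by DESeq2. The edgeR call did not survive the removal of primary library 1, of primary library 2, or of any 1 of the 4 secondary libraries, with adjusted p-values up to 0.0818, nor scaling by library size alone (log2 fold change -0.40, adjusted p = 0.0714).

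The 33 complex I genes tested had a median of -0.40 and were all below 0, from -0.80 to -0.01. The 12 genes of the alpha group, the 11 of the beta group and the 9 iron-sulfur and flavoproteins had medians of -0.37, -0.40 and -0.37. With the block 9 complex I genes were called lower (27.3%, background 11.7%), of which 5 were among the 11 beta genes (45.5%), 1 among the 12 alpha genes (8.33%, under the background) and 2 among the 9 iron-sulfur and flavoproteins (22.2%). Beta subunits belong to the membrane arm in mammals, and the difference between the groups of subunits was not tested. The beta genes were NDUFB3, NDUFB5, NDUFB7, NDUFB10 and NDUFB11, and the others were NDUFA11, NDUFC2, NDUFS4 and NDUFS5.

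NDUFB5-like (LOC121427378, chromosome 14, 8738691 to 8754211) had 102, 104, 105 and 79.5 CPM in primary and 54.9, 64.0, 87.9 and 64.3 CPM in secondary spines. It was lower in secondary spines of all 4 animals, though primary library 4 lay below secondary library 3. The log2 fold change was -0.53 ± 0.17 SE (edgeR adjusted p = 0.114; 0.0193 with the block). NDUFS5-like (LOC121430897, chromosome 17, 56263 to 64746), the complex I member with the highest level per length at a mean of 70.2 FPKM, had 50.7, 47.7, 42.9 and 45.8 CPM against 25.3, 33.7, 40.6 and 33.0 CPM, and its groups did not overlap. Its log2 fold change was -0.50 ± 0.16 SE (edgeR adjusted p = 0.116; 0.0434 with the block). NDUFC2-like (LOC121414187) also had groups that did not overlap, at 45.1 to 55.0 against 32.7 to 43.3 CPM (log2 fold change -0.44 ± 0.14 SE, edgeR adjusted p = 0.116; 0.0301 with the block).

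The remaining blocked calls of complex I differed more in animals 1 and 2 than in animals 3 and 4. NDUFS4-like (LOC121415630), a small subunit of the matrix arm needed for a complete complex in mammals, had 86.9, 60.6, 53.1 and 39.5 CPM against 45.9, 36.5, 47.9 and 30.9 CPM (edgeR adjusted p = 0.262; 0.0291 with the block). NDUFB3-like (LOC121426517) had 52.8, 49.7, 70.9 and 42.3 CPM against 28.5, 29.1, 62.9 and 28.8 CPM, with animal 3 high in both spines (edgeR adjusted p = 0.416; 0.0169 with the block). NDUFB11-like (LOC121410707), the complex I member with the next highest level per length (mean 51.6 FPKM), had 103, 76.8, 109 and 110.4 CPM against 61.7, 48.5, 89.3 and 104 CPM (edgeR adjusted p = 0.473; 0.0391 with the block). NDUFA11-like and NDUFB10-like both had a log2 fold change of -0.56, with SE of 0.30 and 0.24, and adjusted p-values of 0.394 and 0.243 by edgeR and of 0.0153 and 0.0362 with the block. The groups overlapped for these genes.

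Complex II, which oxidises succinate and is also an enzyme of the citric acid cycle, had the median nearest to 0 among the nuclear complexes in the reported fit. With correction for gene length it was -0.22, and complex IV was then nearer to 0 at -0.19. In the reported fit its 5 genes had a median of -0.26 and a range of -0.27 to 0.02, and 0 were called lower or higher by edgeR with or without the block, and 0 had an unadjusted edgeR p under 0.05. SDHC-like (LOC121420753), a membrane anchor, had 16.1, 19.5, 15.4 and 14.2 CPM in primary and 12.1, 11.5, 14.5 and 15.9 CPM in the secondary ones (log2 fold change -0.27 ± 0.18 SE, edgeR adjusted p = 0.519). SDHB-like (LOC121427451), the iron-sulfur subunit, had 61.3, 47.2, 47.7 and 32.7 CPM against 43.7, 37.5, 45.6 and 31.1 CPM (log2 fold change -0.26 ± 0.21 SE, edgeR adjusted p = 0.626). The flavoprotein SDHA, which holds the succinate site, was split between LOC121417972 (log2 fold change -0.23 ± 0.16 SE) and LOC121419291. Whether complex II differs from the other complexes was not tested.

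Complex III passes electrons from ubiquinol to cytochrome c, and all 6 of its nuclear genes had log2 fold changes below 0, with a median of -0.41. Blocked calls were made for subunits 6, 7 and 8, small supernumerary subunits, and the unblocked edgeR fit called 0. Subunit 7 (LOC121428158, chromosome 1, 90376126 to 90385332) had 99.3, 87.8, 60.9 and 80.3 CPM in primary and 53.9, 56.5, 53.4 and 63.7 CPM in secondary spines, lower in each animal. The log2 fold change was -0.53 ± 0.16 SE (edgeR adjusted p = 0.0971; 0.0245 with the block). Subunit 8 (LOC121431277), with the highest level per length among nuclear members of the complex at a mean of 73.6 FPKM, had 86.3, 87.1, 98.0 and 93.9 CPM against 54.5, 50.4, 83.1 and 80.0 CPM, and its groups did not overlap (log2 fold change -0.45 ± 0.18 SE, edgeR adjusted p = 0.222; 0.0260 with the block). Subunit 6 (LOC121423984) had a log2 fold change of -0.48 ± 0.21 SE (edgeR adjusted p = 0.264; 0.0367 with the block). Subunit 2, a core protein (LOC121422466, mean 69.1 FPKM), had a log2 fold change of -0.32 ± 0.17 SE and was not called in either fit.

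Complex IV holds COX1 and COX2 beside small nuclear subunits, and its 10 nuclear members had a median of -0.34. COX7A1-like (LOC121418733, chromosome 7, 21522044 to 21525248) had 185, 153, 117 and 131 CPM in primary and 108, 90.3, 104 and 103 CPM in secondary spines. All primary libraries were above all secondary libraries, and the log2 fold change was -0.53 ± 0.16 SE (edgeR adjusted p = 0.0821; 0.0209 with the block; DESeq2 adjusted p = 0.0227). The neighbouring name COX7A2-like (LOC121418824), also on chromosome 7 and at the second highest level per length among nuclear complex IV members (mean 95.5 FPKM), had 100.1, 98.2, 69.3 and 70.0 CPM against 65.3, 54.2, 74.6 and 77.1 CPM, and was higher in secondary spines of animals 3 and 4. Its log2 fold change was -0.32 ± 0.18 SE (edgeR adjusted p = 0.421). COX4-like (LOC121408705, mean 109.5 FPKM), the largest nuclear subunit in mammals, had 220.2, 169.9, 117 and 106 CPM against 143, 102, 123 and 111 CPM, and was likewise higher in secondary spines of animals 3 and 4 (log2 fold change -0.36 ± 0.24 SE, edgeR adjusted p = 0.517). NDUFA4-like (LOC121411130), once listed with complex I and now placed in complex IV in mammals, had a log2 fold change of -0.43 ± 0.15 SE (edgeR adjusted p = 0.13; 0.0602 with the block).

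Complex V, the ATP synthase, contained the most abundant nuclear members. Its 15 genes had a median level of 90.6 FPKM, against 25.5 FPKM for complex I, 17.2 FPKM for complex II, 60.9 FPKM for complex III and 80.7 FPKM for complex IV, and a median log2 fold change of -0.39. Subunit C1 of the membrane ring (LOC121411302, chromosome 3, 51425845 to 51438838; mean 370.4 FPKM) had 649, 594, 488 and 474 CPM in primary and 392, 358, 426 and 425 CPM in secondary spines. The beta subunit (LOC121426330, chromosome 13, 3325395 to 3336146; mean 276 FPKM), which carries the catalytic sites, had 809, 665, 611 and 619 CPM against 519.9, 470.4, 609 and 580.1 CPM. Groups did not overlap for either gene, and for the beta subunit animal 3 was nearly equal in both spines. The log2 fold changes were -0.46 ± 0.13 SE for C1 (edgeR adjusted p = 0.0787; 0.0435 with the block) and -0.31 ± 0.13 SE for beta (edgeR adjusted p = 0.246; 0.127 with the block). The delta subunit of the rotor (LOC121424047) had -0.39 ± 0.13 SE (edgeR adjusted p = 0.127). Subunit f of the membrane part (LOC121422889) was called with the block only (log2 fold change -0.52 ± 0.18 SE, edgeR adjusted p = 0.154; 0.0476 with the block).

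**Figure D4:**
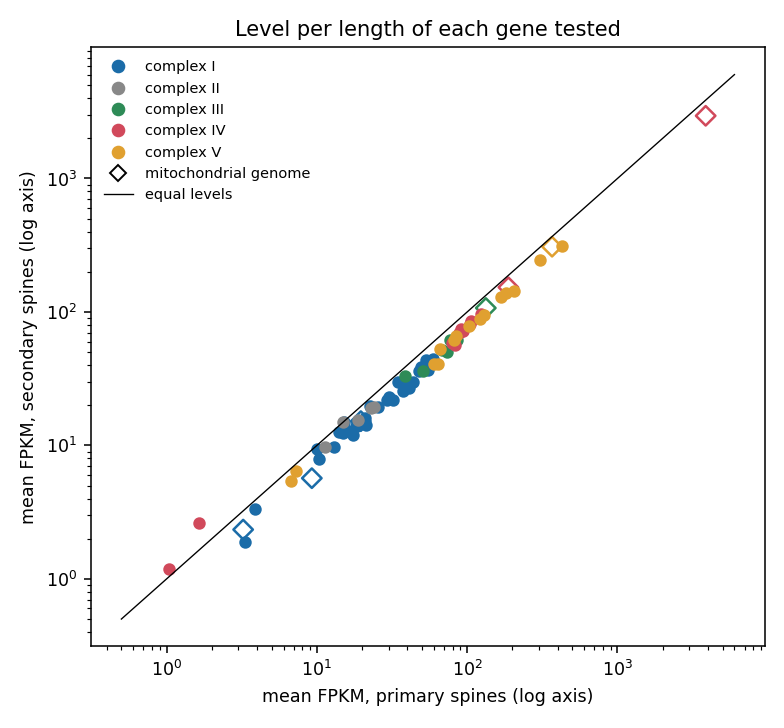
Mean FPKM in primary spines (x axis, log scale) against mean FPKM in secondary spines (y axis, log scale) for each gene tested, over 4 libraries each, colored by complex, with diamonds for mitochondrial genes and the line of equal levels. Most genes lie a little under the line over a range from 1.11 FPKM to 3405 FPKM (means of all 8 libraries), with COX1 at the top, and ND2 and ND5 are among the lowest members. The FPKM denominators were 0.9049 to 0.9935 times the total count in primary and 1.062 to 1.082 times in secondary libraries. This scaling places points lower than library size alone would.

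Several subunits were represented by a pair of genes with the same product name, on 1 chromosome each and 797 to 6295 kilobases apart. There were 10 such names, of which 9 were subunits and 6 belonged to complex I. For several of them the share of each copy followed the animal rather than the spine type. ATP synthase subunit O, a part of a stalk that joins the catalytic head to the membrane part, is named for LOC121413495 (chromosome 4, 15888593 to 15900968) and LOC121413555 (chromosome 4, 18510409 to 18532325). The first gene took 35.8%, 72.5%, 43.7% and 55.2% of the pair's CPM in primary spines of animals 1 to 4 and 34.7%, 69.6%, 42.5% and 55.4% in their secondary spines. Shares differed by at most 2.88 percentage points within an animal and spanned 37.8 points over libraries.

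Summing the copies of subunit O removed most of that variation. The coefficient of variation among primary libraries was 45.4% and 35.1% for the single genes and 18.9% for their sum, and among secondary libraries it was 31.1%, 29.4% and 4.76%. The summed level was 168, 184, 125 and 130.3 CPM in primary and 94.1, 99.4, 104 and 104 CPM in secondary spines, with no overlap. Its log2 fold change of -0.60 ± 0.14 SE was called by edgeR (adjusted p = 0.0415), whereas the genes counted apart had -0.65 ± 0.33 SE and -0.54 ± 0.30 SE with adjusted p-values of 0.356 and 0.4 (0.0168 and 0.0197 with the block). The summing was chosen after the data had been seen. All 10 names were summed, and that of subunit O was the only sum called in the unblocked fit. The other sums had edgeR adjusted p-values of 0.182 to 0.865.

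Other pairs showed animal-specific shares as well. For the NADH-binding flavoprotein 1 of complex I, LOC121419324 took 46.4%, 81.0%, 47.1% and 48.7% in primary and 44.6%, 80.9%, 49.2% and 43.0% in secondary spines, so that animal 2 stood apart in both. The sum of that pair had a log2 fold change of -0.11 ± 0.13 SE (edgeR adjusted p = 0.777). For the iron-sulfur protein 2 of complex I, LOC121420010 took 44.6% and 45.8% in animal 2 and 66.3% to 74.8% in the other animals. For ATP synthase subunit alpha, LOC121415818 took 72.9% and 73.7% in animal 1 and 59.9% to 63.8% in the others. For SDHA the share of LOC121419291 was not kept within animal 2, where it was 38.3% in primary and 61.3% in secondary spines.

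**Figure D5:**
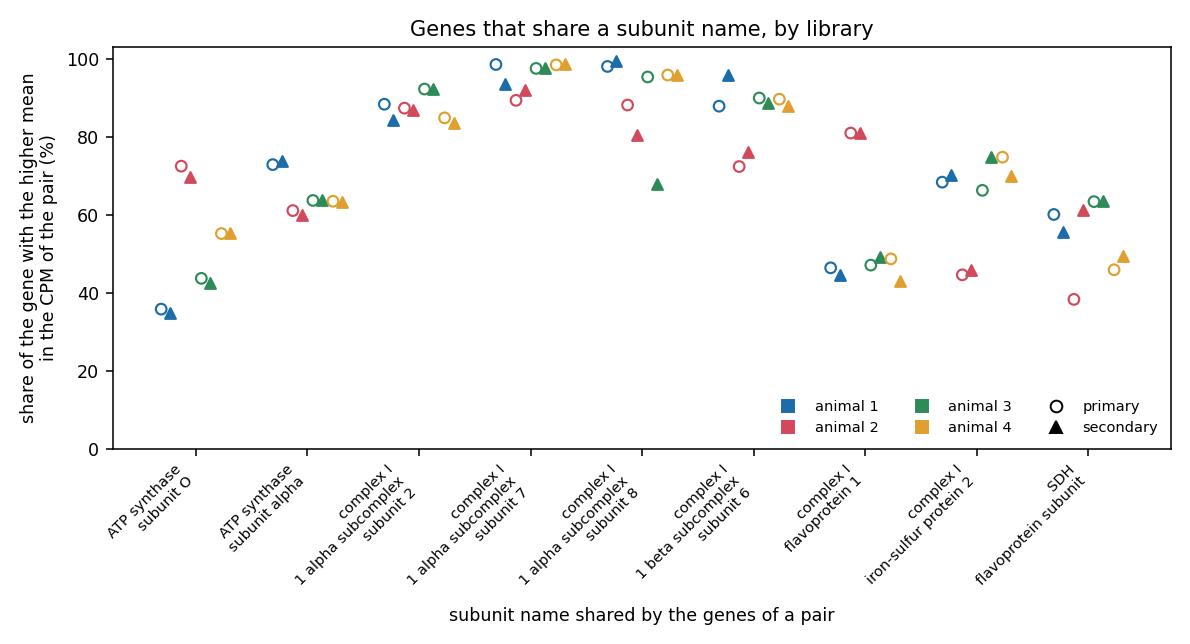
Share of the gene with the higher mean in the summed CPM of its pair (y axis, percent) for the 9 subunit names held by a pair of genes (x axis), with 1 color per animal, open circles for primary and filled triangles for secondary libraries. For ATP synthase subunit O the circle and triangle of an animal lie within 2.88 points while animals span 34.7% to 72.5%; for alpha subcomplex subunit 8 and the SDH flavoprotein single animals differ between spines by 27.6 and 23.0 points.

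Whether such a pair is a duplicated gene or alleles of 1 locus placed apart in the assembly was not tested. Reads that fit both copies may have been divided or dropped, so values of single copies are uncertain. The second copies of NDUFA7-like (LOC121424004) and NDUFA8-like (LOC121409929) were the nuclear members under the count filter, at 0.215 to 2.19 CPM and 0.097 to 9.83 CPM.

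Subunits that the product names did not catch, found from the deposited Swiss-Prot matches after the data had been seen, gave similar values. There were 9 such genes, of which 8 could be tested, with a median of -0.46. By edgeR 0 were called without the block, and 3 were called lower with it (37.5%, background 11.7%). At an unadjusted p under 0.05, 3 were lower (37.5%, background 8.19%). The gene matched to COX7C (LOC121411555) had a log2 fold change of -0.62 ± 0.16 SE (edgeR adjusted p = 0.0585; 0.00936 with the block), and that matched to complex III subunit 9 (LOC121408825) had -0.48 (edgeR adjusted p = 0.104; 0.0266 with the block). NDUFS1, the largest subunit of the matrix arm, was represented by LOC121426058 and LOC121426059 with values of -0.06 and -0.04.

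Genes around the respiratory chain were examined in 10 lists. Of the 160 genes tested over all lists, the unblocked edgeR fit called 2 higher (1.25%, background 5.88%) and 0 lower (background 1.93%), where 13 were lower at an unadjusted p under 0.05 (8.12%, background 8.19%) and DESeq2 called 4 lower (2.5%, background 4.57%). With the block 3 were higher (1.88%, background 12.4%) and 18 lower (11.2%), a share close to the background of 11.7%. Cristae and dynamics genes had the lowest median of the lists with more than 1 gene at -0.38, with 3 of 8 called lower with the block and 0 without. MIC19-like (LOC121410300), a part of the complex that shapes cristae, had 69.7, 68.5, 65.9 and 68.5 CPM in primary and 48.4, 45.4, 54.6 and 53.9 CPM in the secondary ones, without overlap (log2 fold change -0.43 ± 0.11 SE, edgeR adjusted p = 0.0505; 0.0161 with the block). Among carriers, the outer membrane channel VDAC2-like (LOC121431687) had 1827, 1551, 1394 and 1420.4 CPM against 1122, 963, 1222 and 1230.2 CPM (log2 fold change -0.45 ± 0.13 SE, edgeR adjusted p = 0.0821; 0.0452 with the block), and the 11 carriers tested had a median of -0.24.

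Lists for neighbouring steps had medians nearer to that of all genes, though less so once gene length was taken into account. With length correction the median was -0.23 for glycolysis, -0.21 for the citric acid cycle and -0.23 for cytochrome c and ubiquinone genes, against -0.28 for nuclear members and -0.05 for all genes. Without it, the 28 assembly factors had a median of -0.22, the 16 import genes tested -0.22, the 13 cytochrome c and ubiquinone genes -0.29, the 30 citric acid cycle and pyruvate dehydrogenase genes -0.18 and the 19 glycolysis genes -0.18. The lists were matched by product name and hold some genes of other pathways. Examples are enolase-phosphatase E1 and ketohexokinase in the glycolysis list and ATP-citrate synthase in the citric acid cycle list. The medians are those of the lists as matched. The COX assembly protein homolog (LOC121428014), the most abundant assembly factor, had a log2 fold change of -0.42 ± 0.25 SE (edgeR adjusted p = 0.45; 0.0487 with the block). The 25 genes for transcription, replication and translation of the mitochondrial genome stood at 0.06, with 0 called and 1 lower with the block. The mitochondrial elongation factor Tu (LOC121408892) had a log2 fold change of -0.24 ± 0.21 SE (edgeR adjusted p = 0.655), the import receptor TOM20 (LOC121419241) -0.18 ± 0.17 SE (adjusted p = 0.679) and the most abundant cytochrome c gene (LOC121426055) 0.01 ± 0.23 SE (adjusted p = 0.993). A less abundant gene named cytochrome c, somatic-like (LOC121426863) was lower in secondary spines of all 4 animals. Its log2 fold change was -0.63 ± 0.25 SE (edgeR adjusted p = 0.209, and 0.031 with the block). Alternative oxidase (LOC121411359), which bypasses complexes III and IV and is found in many invertebrates, had 30.3 to 34.3 CPM against 24.4 to 27.9 CPM (log2 fold change -0.33 ± 0.12 SE, edgeR adjusted p = 0.173). The 9 regulators had a median of -0.14 and included HIF1-alpha-like (LOC121418593), the oxygen-sensitive transcription factor, which was called higher with the block only (log2 fold change 0.43 ± 0.20 SE, edgeR adjusted p = 0.312; 0.0218 with the block).

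The genes called higher without the block were in the citric acid cycle and glycolysis lists. Putative malate dehydrogenase 1B (LOC121410781, chromosome 3, 31943376 to 31952487) had 24.3, 31.7, 18.6 and 14.9 CPM in primary and 69.4, 67.7, 63.2 and 62.2 CPM in the secondary ones (log2 fold change 1.55 ± 0.23 SE, edgeR adjusted p = 0.00479). Enolase 4-like (LOC121425054, chromosome 12, 21824924 to 21838663) had 7.42, 16.6, 9.28 and 6.3 CPM against 24.3, 28.0, 30.3 and 29.7 CPM (log2 fold change 1.50 ± 0.30 SE, edgeR adjusted p = 0.0186). The enolase call was lost in 5 of the 8 fits with 1 library left out, which were primary 1, primary 3 and secondary 2, 3 and 4. In mice enolase 4 is an enzyme of the sperm tail.

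Markers of other cells were counted beside these results. Of all genes tested, 5.88% were called higher and 1.93% lower, and the ciliary names stood far above the share called higher. Of 60 ciliary genes tested (axonemal, radial spoke, intraflagellar transport and tektin names) 46 (76.7%) were called higher and 0 lower by edgeR, with summed levels of 1339 to 2522 CPM in primary and 6075 to 7875 CPM in secondary libraries, and 1 of the 62 listed was at 0 in all libraries of either group. For muscle, the 18 genes tested had 2 called higher (11.1%) and 0 lower, at 1554 to 2065 against 1464 to 2136 CPM, and none of the 21 listed was at 0. Neuronal names had 2 higher (6.45%) and 1 lower (3.23%) of 31 tested, near the shares of all genes, at 2767 to 3423 against 2163 to 2722 CPM, with 1 of 35 listed at 0 in all primary and 2 in all secondary libraries. Skeletogenic names had 0 called of 19, at 656 to 1654 against 760.1 to 2061 CPM, with 4 of 27 listed at 0 in all primary and 3 in all secondary libraries. Immune and pigment cell names had 1 higher (1.89%) and 1 lower (1.89%) of 53, at 3243 to 4499 against 3020 to 5007 CPM, with 17 of 109 listed at 0 in all primary and 12 in all secondary libraries. The part of cell composition in the oxidative phosphorylation values was not tested.

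Scaling and gene length changed the size of the medians but not their sign. With library size alone the median of all genes moved from -0.03 to 0.14, and the medians of nuclear and mitochondrial members to -0.20 and -0.21, so that their distance from all genes stayed similar. Nuclear members were short, with a median length of 1365 bases against 2782 for all genes tested. With a correction for gene length their median was -0.28, and that of mitochondrial members was -0.24, against -0.05 for all genes.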

How the data were processed

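RNA of 4 primary and 4 secondary spine libraries was analysed. Reads had been aligned with HISAT2 2.0.5 and assigned with featureCounts, per the submitters' processing notes. The deposited table gives raw read counts per gene, used for every test, and FPKM, used here only to compare levels between genes. Per the file headers it names products, Swiss-Prot matches, coordinates and gene lengths; the reference was the Lvar_3.0 assembly, per the labels. By the deposited values, the FPKM denominators were 0.9049 to 0.9935 times the total count in primary and 1.062 to 1.082 times in secondary libraries, so FPKM carry a further scaling. Chromosome numbers were taken from a RefSeq gene table that matched all 26814 genes.

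Counts were filtered with filterByExpr (16788 genes kept), scaled by TMM and fitted with edgeR 4.0.16 (robust quasi-likelihood, R 4.3.3) with spine type as the term. P-values are two-sided and adjusted by Benjamini-Hochberg over all genes tested, with a threshold of 0.05. CPM are TMM-scaled, and within-animal differences of single genes used a pseudocount of 0.5 CPM. Totals were 9252184 to 10902546 reads. The common biological coefficient of variation stood at 0.47, and at 0.183 in the blocked fit.

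Both spine types came from the same 4 individuals, per the labels, and libraries of 1 number were taken as 1 animal: their deviations from group means correlated at 0.733 to 0.811, against -0.317 to -0.2 for other numbers. Deviations from a group mean cancel out over its libraries, so negative values for other numbers are built in once the same-number values are high. The reported fit leaves out this pairing. The block was an alternative, as were DESeq2 1.42.0, other scalings, no filter, length correction and left-out libraries. Replicate libraries differed by far more than sampling noise, with a mean chi-square per gene of 37.5 to 60.9.

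The members and lists were chosen with earlier results of these data known. Named were all mitochondrial protein genes; per complex the 2 nuclear members with the highest mean FPKM and the 2 with the smallest p; called members; up to 8 further blocked calls; and per list up to 2 called genes or otherwise the most abundant. Subunit f, a further cytochrome c gene, pairs and genes outside the product names were described beside these. The model script was tested on simulated data. No sequences are printed and promoter motifs were not analysed here.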

Additional observations from a re-analysis of the deposited data

Results flagged for a closer look

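In groups of 4 libraries, 5 of 73 groups of member values held a library far from the other 3; chance alone flags about 1 in 20 groups. COX2 had 146 CPM in secondary library 2, against 93.0 to 95.6 CPM in the other secondary libraries, and animal 2 was also the highest in primary spines. NDUFB5-like (LOC121427378) had 79.5 CPM in primary library 4, against 102 to 105 CPM. NDUFB3-like (LOC121426517) had 62.9 CPM in secondary library 3, against 28.5 to 29.1 CPM, and without that library its difference was called by edgeR (adjusted p = 0.041). Animal 3 was also the highest in primary spines, at 70.9 CPM, and its primary library stayed in that unblocked fit, so the call rests on an unpaired library. The second copies of NDUFA7-like (LOC121424004) and NDUFA8-like (LOC121409929) had 2.19 and 3.19 CPM in primary library 2, against 0.215 to 0.321 CPM and 0.645 to 0.949 CPM.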

How the results depend on the processing

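The count of nuclear members called lower was 1 in the reported fit (1.45%, background 1.93%). It was 17 with the replicate block (24.6%, background 11.7%), 8 with DESeq2 (11.6%, background 4.57%), 17 with DESeq2 and the block, 16 with gene length correction and the block, 0 with library size scaling, 2 with the copies of a product name summed and 16 with copies summed and the block. Leaving out 1 library gave 0 to 2, and leaving out 1 animal in the blocked fit gave 0 to 19. The count of mitochondrial members called lower was 0 in the reported fit (background 1.93%) and 1 with the block (14.3%, background 11.7%). It was 1 with DESeq2 fitted with the block, and 0 to 1 in blocked fits without 1 animal. For the 10 surrounding lists the count called lower of 160 tested was 0, against 18 with the block (11.2%, background 11.7%), 4 with DESeq2 (2.5%, background 4.57%), 16 with DESeq2 and the block, 1 with RLE scaling and 23 with gene length correction and the block, and 2 to 10 in blocked fits without 1 animal; the count called higher was 1 to 2 without 1 library. Where a count stands without a background, the share of all genes called in that fit is not reported here. Such a count shows how calls move with the setting and cannot be set against all genes. The median of complex II moved from -0.26 to -0.09 with library size scaling, as all genes moved upward. ATP6 ranged from -0.36 to -0.02, COX2 from -0.47 to -0.09, ND5 from -0.87 to -0.06, ND3 from -1.17 to 0.40 and cytochrome c (LOC121426055) from -0.11 to 0.21 on the log2 scale in fits with libraries left out. Causes of these differences were not tested. The nuclear and mitochondrial medians kept their sign in every fit run. Of the named genes' values under alternatives, 765 kept direction and side of the threshold, 95 became called, 13 lost a call and 9 reversed, all 9 in ND3 and cytochrome c. With 10 or fewer reads each over 8 libraries, ND1, ND4, ND4L, COX3 and ATP8 allow no comparison at this depth.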
